A study of Mus musculus with 8 samples.

Results

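Oxidative phosphorylation was examined here through 88 of the 22810 genes in the deposited read counts, in single mouse blastocysts whose parental alleles can be told apart. The genes were chosen by symbol: every symbol beginning with Nduf, Uqcr, Cox4 to Cox8 or Atp5, and Sdha, Sdhb, Sdhc, Sdhd, Cyc1 and Cycs, without the X-linked Ndufa1, Ndufb11 and Cox7b. Cyc1 and the mitochondrially encoded subunits were not analysed here. The 88 members held 34 genes of complex I, 4 of complex II, 8 of complex III, 15 of complex IV with Ndufa4 among them, 15 of complex V and the electron carrier Cycs. The rule also took 7 complex I assembly factors (Ndufaf genes), the supercomplex factor Cox7a2l, Atp5s and Atp5sl, which are not subunits despite their symbols, and the pseudogene Atp5c1-ps. All 88 lie on autosomes.

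RNA was taken from embryonic day 3.5 (E3.5) blastocysts after natural mating, lysed without in vitro culture. In the forward cross, 3 embryos (numbers 1, 2 and 3) had a C57BL/6 (B6) mother and a Mus musculus castaneus (cast) father, and in the reverse cross 5 embryos (numbers 1, 2, 3, 5 and 7) had a cast mother and a B6 father. Each replicate was 1 whole blastocyst, a mixture of trophectoderm, epiblast and primitive endoderm, and neither a treatment nor an engineered allele was named. Which embryos shared a litter was not given, so p-values do not cover a spread between litters. The main tests between alleles took both alleles of an embryo as independent libraries. Their p-values thus measure the spread between allele libraries, and a term for each embryo served as the paired alternative. In the comparison of embryo totals between crosses, p-values measure the spread between these embryos. Fewer cells of a type and less RNA per cell cannot be told apart in such samples. Values are numbers of reads that span a SNP between both strains, so that each gene has a B6 and a cast count in each embryo. The number of such reads depends on how many SNPs a transcript carries, and levels of different genes were therefore not compared.

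The oxidative phosphorylation system transfers electrons from NADH through complex I and from succinate through complex II to ubiquinone, then through complex III and cytochrome c to complex IV, which reduces oxygen. The proton gradient made on the way drives complex V, the ATP synthase. Most subunits are encoded in the nucleus, while a small core comes from mitochondrial DNA, which embryos inherit from the mother. In the preimplantation mouse embryo, mitochondria become more active as the blastocoel forms, and the trophectoderm is the tissue with the higher oxygen use.

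The factor NRF1 is known for binding promoters of many nuclear respiratory genes. In the RefSeq windows from 250 bases before to 50 bases after a transcript start (build GRCm38.p6), which were found for 73 of the 88 members, the NRF1 letters (GCGC, then any base, then TGCGC) on either strand occurred in 19 members (26.03%), in 5.19% of all 27025 genes with such a window and in 10.7% of the 9579 of them that were tested here. The YY1 letters AAGATGGCG occurred in 8 members (10.96%), in 1.64% of all genes and in 3.32% of the tested genes. The ETS letters CCGGAAGT, which GABP recognises, occurred in 5 members (6.85%), in 4.31% of all genes and in 8.77% of the tested genes. A match says that the letters are there, not that a factor binds. The windows of 3 members whose reads came mostly from B6 are shown from 250 to 51 bases before the start, 5′ to 3′ on the strand of the gene, with NRF1 matches in capitals. They are Ndufs5 (chr4:123718237-123718436, minus strand), Atp5h (chr11:115419970-115420169, minus strand) and Cox5b (chr1:36691237-36691436, plus strand).
Ndufs5: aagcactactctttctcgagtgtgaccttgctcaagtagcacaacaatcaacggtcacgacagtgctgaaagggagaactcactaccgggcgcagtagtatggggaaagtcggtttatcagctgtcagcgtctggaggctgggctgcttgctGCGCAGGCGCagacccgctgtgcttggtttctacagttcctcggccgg
Atp5h: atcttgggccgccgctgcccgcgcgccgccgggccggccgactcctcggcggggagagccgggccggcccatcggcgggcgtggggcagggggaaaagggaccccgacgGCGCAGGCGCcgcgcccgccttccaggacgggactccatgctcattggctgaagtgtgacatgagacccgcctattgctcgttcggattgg
Cox5b: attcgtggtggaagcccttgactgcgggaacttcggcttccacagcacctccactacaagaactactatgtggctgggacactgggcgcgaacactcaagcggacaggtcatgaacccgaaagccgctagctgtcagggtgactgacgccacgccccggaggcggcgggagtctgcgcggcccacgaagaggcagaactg
Ndufs5 and Atp5h thus hold the same 10 capital letters, and Cox5b holds none of the 3 motifs. The window of Atp5h also has the ETS letters, outside the bases shown.

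Respiratory genes are also known for many processed copies in the genome, and reads that map to several places had been left out of the counts. Coding sequences of 87 members were therefore compared with all other GENCODE M21 transcripts. At 90% identity or more over at least 80% of the coding sequence, 31 of the 87 members had another such locus, among them 5 of the 10 members with a strain difference described below and 23 of the 71 tested members without one. This criterion was chosen after a first one (95% identity over at least 50% of the longest transcript) had found 7 members, 1 of them with a strain difference. For a pair of the members with the most uneven reads, 120 coding bases are shown beside the most similar locus, with the bases that differ in capitals. Cox5b (chr1:36691449-36693681, plus strand) is compared from coding base 158 to 277 with Gm11273 (chr13:21501029-21501418, minus strand), which differed at 3 of 387 aligned bases. Ndufs5 (chr4:123712710-123718202, minus strand) is compared from coding base 41 to 160 with the processed pseudogene BC002163 (chr16:42955631-42955949, plus strand), which differed at 2 of 318. Atp5h, more uneven than Ndufs5, is not shown, because its alignment with its closest copy holds gaps.
Cox5b: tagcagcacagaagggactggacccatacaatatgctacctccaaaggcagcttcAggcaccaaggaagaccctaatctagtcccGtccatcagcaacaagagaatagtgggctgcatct
Gm11273: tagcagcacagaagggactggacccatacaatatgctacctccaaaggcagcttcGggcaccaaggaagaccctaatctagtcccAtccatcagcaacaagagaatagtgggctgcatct
Ndufs5: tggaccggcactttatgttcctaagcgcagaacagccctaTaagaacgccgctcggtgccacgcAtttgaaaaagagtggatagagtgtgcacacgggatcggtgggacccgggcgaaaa
BC002163: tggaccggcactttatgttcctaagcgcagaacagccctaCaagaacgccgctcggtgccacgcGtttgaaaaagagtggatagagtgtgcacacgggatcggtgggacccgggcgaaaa
The part of such copies in the allelic values was not tested, and reads of Gm11273 and BC002163 were not analysed here.

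The 8 embryos had between 1060063 and 1632695 SNP-spanning reads, of which 57.4% to 58.3% were B6. The members took 2.19% of these reads in reverse embryo 1 and 3.36% to 4.18% in the other embryos. Reverse embryo 1 stood apart across the transcriptome: its gene levels lay a median of 0.996 (absolute log2 units) from those of the other embryos, against 0.384 to 0.540 in the others. The 7 trophectoderm markers (Cdx2, Gata3, Krt8, Krt18, Eomes, Tfap2c and Elf5) were all read, and summed to 930 reads per 1000000 SNP-spanning reads (CPM) in reverse embryo 1, to between 3680 and 3959 in the other reverse embryos and to between 3973 and 4993 in the forward embryos. The summed epiblast and primitive endoderm markers of reverse embryo 1, 149 and 278 CPM, lay within the ranges of the other embryos, 115 to 208.5 and 173 to 328. The 4 leukocyte markers summed to 682 CPM in forward embryo 1 and to 1.34 to 36.0 elsewhere. The red blood cell markers, 2 of 4 in the table, summed to 51.2 in reverse embryo 1 and to 2.67 to 24.8 elsewhere, and the 4 uterine and oviduct epithelium markers to 2.83 to 76.0. The cumulus markers, 2 of 4 in the table, summed to at most 4.29 and were at 0 in forward embryos 2 and 3. The part of these cell types in the results was not tested. Results are given with and without reverse embryo 1 where it changes a count by over 1.5 times.

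To ask which members differ between the strains whatever parent they come from, B6 and cast alleles were compared over both crosses. Cox5b and Atp5h were read almost only from the B6 allele in each of the 8 embryos, and Ndufs5 and Cox6c came mostly from B6. Cox7a2l, Cox7a2, Ndufa12, Ndufc1 and the assembly factor Ndufaf6 were higher from B6 by smaller margins, and Ndufs1 was higher from cast. Of the 81 members that had at least 10 reads in an allele library, 10 (12.3%) thus differed between strains, 9 towards B6 and 1 towards cast, by edgeR's quasi-likelihood test with a threshold of 0.1 on the adjusted p. Of all 12565 genes tested, 15.5% were called, 11.0% towards B6 and 4.45% towards cast. Among genes with at least 1000 reads in all, 9 of 51 members (17.65%) and 17.01% of all genes were called. This background was added after seeing the depth of the members. Differences are on the log2 scale after TMM scaling of each allele library, so that 0 stands for the B6 share of an average gene, and the median B6 share over genes with at least 20 reads was 55.4% to 58.0% per embryo. The median difference was -0.02 over the 81 members and 0.06 over all genes. Reads of both strains had been aligned to the same reference genome (mm10), and its part in the B6 shares was not tested.

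Cox5b and Cox6c belong to complex IV, cytochrome c oxidase. Of the Cox5b reads, 98.5%, 99.1% and 99.0% were B6 in the forward embryos, in the order of their numbers. In the reverse embryos, in the same order, the share was 99.6%, 98.03%, 98.7%, 98.4% and 98.5%. The 10678 reads of this nuclear subunit included 141 from cast, and the shares of both crosses overlapped. The B6 minus cast difference was 5.94 (SE 0.39, adjusted p 7.24e-11, edgeR's quasi-likelihood test). Of the Cox6c reads, 90.9%, 90.7% and 91.8% were B6 in the forward embryos and 91.97%, 88.1%, 90.9%, 90.8% and 92.1% in the reverse embryos. All 8 embryos thus lay within a few percentage points of each other, with a difference of 3.00 (SE 0.23, adjusted p 1.21e-09). Cox6c (chr15:35925886-35938246) overlaps Vps13b on the other strand and had 2 similar loci, with up to 96.9% identity, and whether the counting used strand is not given in the sources used here.

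Cox7a2 encodes the form of subunit VIIa that is found in most tissues. Its reads were 78.6%, 81.1% and 73.5% B6 in the forward embryos and 80.8%, 74.3%, 83.9%, 86.1% and 79.4% in the reverse embryos, a difference of 1.60 (SE 0.24, adjusted p 4.28e-05). The related Cox7a2l helps to join complexes III and IV into supercomplexes, and its reads were 80.5%, 85.8% and 84.7% B6 in the forward embryos and 93.2%, 89.7%, 81.7%, 76.96% and 81.9% in the reverse embryos. The difference of 2.03 (SE 0.32, adjusted p 8.07e-05) again had overlapping crosses. No similar locus was found for either gene. The muscle-type Cox7a1 had only 34 reads and a difference of 0.50 (adjusted p 0.87).

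Atp5h, a subunit of the peripheral stalk of the ATP synthase, had 2405 reads, 54 of them from cast. Its B6 share was 98.1%, 97.0% and 98.5% in the forward embryos and 98.03%, 97.9%, 96.1%, 98.03% and 99.0% in the reverse embryos, a difference of 5.11 (SE 0.38, adjusted p 1.08e-09). It was the only 1 of 15 complex V members with a call, and 5 processed pseudogenes resembled its coding sequence, Gm10250 with 99.0% identity. Atp5o, another stalk subunit and the complex V member with most reads (15908), was 54.8%, 56.7% and 57.9% B6 in the forward embryos and 57.5%, 54.0%, 54.98%, 53.96% and 59.2% in the reverse embryos. Its strain difference of 0.03 (SE 0.28, adjusted p 0.98) and parental difference of -0.03 were not called.

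Among 32 tested complex I members, 4 were called. Ndufs5 is an accessory subunit on the intermembrane side of complex I. Its B6 share was 94.8%, 94.3% and 96.5% in the forward embryos and 83.1%, 93.5%, 94.0%, 93.9% and 95.5% in the reverse embryos, with reverse embryo 1 below all others, and the difference was 3.66 (SE 0.27, adjusted p 7.20e-10) with this embryo and 3.83 without it. Ndufa12, another accessory subunit, was 75.9%, 72.7% and 72.9% B6 in the forward embryos and 76.5%, 71.4%, 74.9%, 73.5% and 70% in the reverse embryos, a difference of 1.15 (SE 0.22, adjusted p 6.54e-04). The processed pseudogene Gm15920 matched 399 of its 447 coding bases at 99.5% identity.

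Ndufc1, an accessory subunit of the membrane arm, was measured with 16219 reads. Its B6 share was 71.4%, 67.9% and 72.5% in the forward embryos and 74.1%, 73.9%, 70.1%, 71.3% and 71.5% in the reverse embryos, a difference of 0.98 (SE 0.22, adjusted p 0.0041) with no similar locus. Ndufs1, the largest core subunit with iron-sulfur clusters, was 41.7%, 51.4% and 40.9% B6 in the forward embryos and 54.8%, 40.1%, 44.4%, 40% and 51.9% in the reverse embryos. Its difference of -0.60 (SE 0.22, adjusted p 0.082) is relative to the average gene, and it was -0.26 (adjusted p 0.51) with each embryo's total as the library size of both its alleles. Ndufs1 overlaps Eef1b2 on the other strand. Ndufaf6, an assembly factor with 393 reads, ranged from 45.6% to 75.9% B6 in the forward embryos and from 62.0% to 91.5% in the reverse embryos, a difference of 0.99 (SE 0.37, adjusted p 0.094). The median of its reverse embryos was 80% and that of its forward embryos 67.4%, and the groups overlapped. The assembly factors with most reads, Ndufaf2 (2822) and Ndufaf4 (965), had strain differences of -0.26 and -0.28 (adjusted p 0.57 and 0.67).

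**Figure D1:**
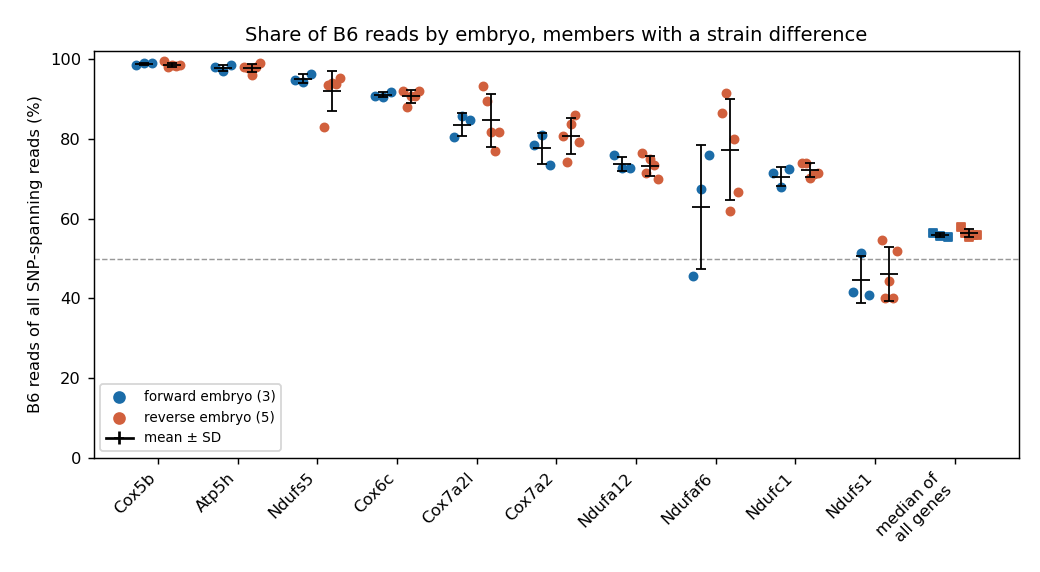
Share of B6 reads among SNP-spanning reads (y axis, percent) for the 10 members called between strains and the median of all genes with at least 20 reads (x axis). Each point is 1 embryo, blue for the 3 forward and orange for the 5 reverse embryos, and the black marks are mean ± SD. Cox5b lies at 98.03% or more in all 8 embryos and Ndufs1 between 40% and 54.8%, while the median gene lies between 55.4% and 58.0%.

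The intervals of these shares are narrow for most of the named members. The widest 95% Wilson half-width over the 8 embryos was 0.763 percentage points for Cox5b, 2.14 for Cox6c, 2.32 for Ndufc1, 2.48 for Atp5h, 4.27 for Ndufa12 and 4.399 for Ndufs5. It was 9.26 for Ndufs1 and 19.99 for Ndufaf6. Reads carried no molecular identifiers, so these intervals cover counting error only.

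How many members were called depended on whether both alleles of an embryo were treated as a pair. With a term for each embryo, 34 of 81 members were called, 18 towards B6 and 16 towards cast. Of all genes, 25.5% were called, 15.8% towards B6 and 9.69% towards cast. The members were read more deeply than most genes, and this background was not matched for depth. All 10 members above were among the 34. The other 24 had differences between -0.998 and 0.63, 15 towards cast and 9 towards B6, a range that holds the -0.60 of Ndufs1. They included the complex IV subunit with most reads, Cox4i1, which was 44.2%, 45% and 49.1% B6 in the forward embryos and 52.4%, 44.8%, 45.2%, 44.95% and 41.9% in the reverse embryos. Its adjusted p was 0.21 without and 1.35e-06 with the embryo term, for differences of -0.59 and -0.57. Ndufb8 of complex I, at 44.9% to 51.3% B6 over the 8 embryos, had an adjusted p of 0.21 without and 4.65e-06 with this term. Without reverse embryo 1, 16 of 77 members were called, 11 towards B6 and 5 towards cast, against 20.6% of all genes, 13.7% towards B6 and 6.90% towards cast. With 1 library size per embryo in place of TMM factors, 18 members were called, all towards B6, against 20.5% of all genes, and the median difference of all genes moved to 0.40. The B6 share of calls over all genes was then 87.4%, in place of 71.3%.

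By complex, the median strain difference was -0.02 in complex I, -0.24 in complex II, 0.34 in complex III, 0.10 in complex IV and -0.12 in complex V. In complexes II and III, none of 3 and 7 tested members was called, while the embryo term called 1 (Sdhb, towards cast) and 2 (Uqcr10 and Uqcrc1, towards B6). Of the summed complex I reads, 57.1% ± 0.39 (SD, n = 3) came from B6 in the forward cross and 55.6% ± 0.56 (SD, n = 5) in the reverse cross. The shares were 56.5% ± 1.29 and 52.9% ± 4.15 for complex II, and 62.7% ± 1.73 and 56.7% ± 3.88 for complex III. Without Uqcr10, its member with most reads, complex III was at 59.3% and 59.9%. For complex V the shares were 57.3% ± 0.49 and 56.9% ± 1.55. Complex IV reached 62.9% ± 0.58 and 61.9% ± 3.26 as a sum, but 56.3% and 54.0% as a median over its members.

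The next comparison asked whether members were expressed unequally from the paternal and maternal allele, the comparison for which the reciprocal crosses were made. None of the 81 tested members was called by edgeR's quasi-likelihood test, against 1.43% of all genes, 1.11% towards the paternal and 0.318% towards the maternal allele. At an unadjusted p under 0.05 there were 2 members. DESeq2 called 1 member, Ndufa3, against 2.02% of all genes, 0.517% towards the maternal allele. The median paternal minus maternal difference was -0.06 over the members and -0.01 over all genes. By complex it was -0.07 in complex I, -0.08 in complex II, -0.22 in complex III, -0.03 in complex IV and -0.06 in complex V.

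With a term for each embryo, 2 members were called, both towards the maternal allele, against 3.10% of all genes, 1.02% towards the maternal allele. Ndufa3, a small accessory subunit of the complex I membrane arm, had a maternal share of 52.8%, 57.4% and 72.5% in the forward embryos and of 69.7%, 61.3%, 67.2%, 65.6% and 55.1% in the reverse embryos. All 8 embryos were above 50%, whichever strain the mother came from. Its paternal minus maternal difference was -0.70 (SE 0.23, adjusted p 0.26) without and -0.75 (SE 0.14, adjusted p 0.0012) with the embryo term, both in edgeR's quasi-likelihood test. DESeq2 gave -0.68 (adjusted p 0.076), and without reverse embryo 1 the difference was -0.64 (adjusted p 0.23). Ndufa3 (chr7:3617373-3620327, plus strand) overlaps Tfpt on the other strand, and the widest Wilson half-width of its shares was 4.69 percentage points.

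Uqcr10, a small subunit of complex III and its member with most reads, had a maternal share of 66.1%, 64.6% and 65.5% in the forward embryos. In the reverse embryos the share was 57.1%, 43.6%, 39.0%, 46.5% and 39.1%, above 50% in reverse embryo 1 only. The difference was -0.28 (SE 0.25, adjusted p 0.9999) without and -0.33 (SE 0.09, adjusted p 0.055) with the embryo term. The antisense gene 4930481A15Rik is 96.1% identical to 155 of the 192 coding bases of Uqcr10, and had 346 B6 and 5 cast reads. Its part in the shares of Uqcr10 was not tested.

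Another complex I gene lay above 50% maternal in all 8 embryos and was singled out after its values were seen. Ndufv3, a subunit of the NADH-binding module, had 54.0%, 52.9% and 50.3% maternal reads in the forward embryos and 55.4%, 51.6%, 50.1%, 53.5% and 53.0% in the reverse embryos, a paternal minus maternal difference of -0.15 (adjusted p 0.9999). Of 9125 tested genes with at least 100 reads in all and reads in each embryo, 0.778% were above 50% maternal in all 8 embryos and 1.42% below.

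**Figure D2:**
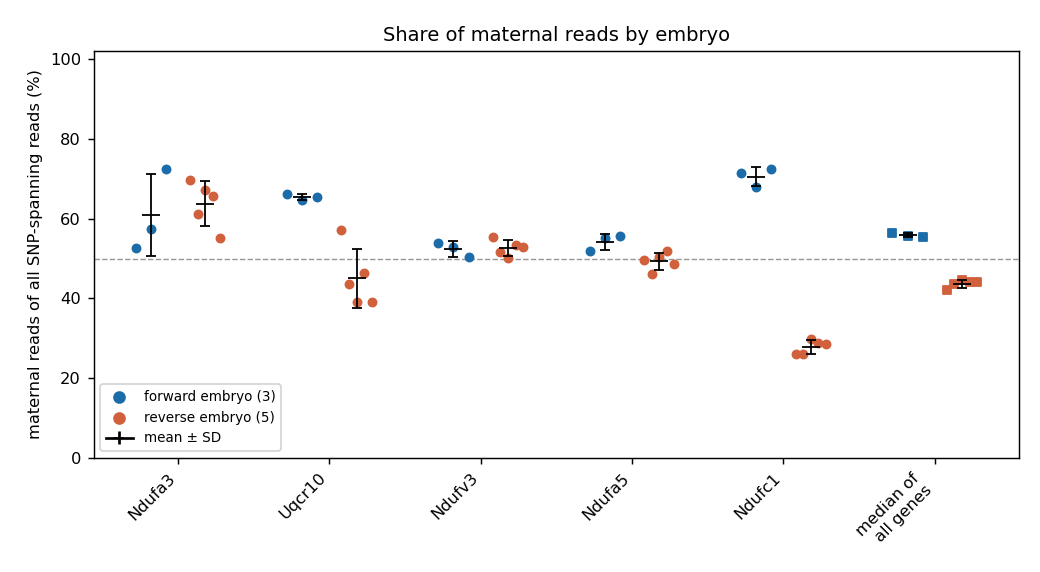
Share of maternal reads among SNP-spanning reads (y axis, percent) by embryo for 5 members and the median of all genes with at least 20 reads (x axis). Points are embryos, blue for forward (B6 mother) and orange for reverse (cast mother), and black marks are mean ± SD. Ndufa3 and Ndufv3 are above 50% in all 8 embryos, whereas Ndufc1, which differs between strains, is at 67.9% or more in the forward and at 29.9% or less in the reverse embryos.

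The members with at least 100 reads and the largest parental differences were Atp5s (-0.87, SE 0.42), Ndufa3, Atp5g1 (0.51, SE 0.45), Ndufaf6 (0.47, SE 0.37) and Ndufaf1 (-0.45, SE 0.33). Apart from Ndufa3, none passed the test with or without the embryo term, with adjusted p of 0.54 or more. Atp5g1 encodes a form of the c subunit that makes up the rotor ring of the ATP synthase. It was 23.8%, 30.2% and 45% maternal in the forward embryos and 88.9%, 46.3%, 49.1%, 57.9% and 46.9% in the reverse embryos, and its widest Wilson half-width was 20.8 percentage points. Reverse embryo 1 was far above the other reverse embryos. Larger values belonged to members with few reads: Ndufa2 had 2.19 with 90 reads and Ndufb9 -1.62 with 50 reads (adjusted p 0.96 and 0.85). Of the 90 reads of Ndufa2, 70 came from reverse embryo 1, all of them B6.

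Equivalent expression from both parental alleles was tested against a log2 margin of 1. With 1 quasi-likelihood test for each side of the margin, 57 of 81 members (70.4%) were called equivalent at the same threshold, against 35.6% of all genes. The members were read more deeply, with a median of 3101 reads in all embryos against 309 over all tested genes. Among genes with at least 1000 reads, 48 of 51 members (94.1%) and 84.1% of all genes were equivalent, a background that was added after seeing the depth of the members. Of the 24 members without this call, 21 had fewer than 1000 reads, and the others were Ndufa3, Sdhb and Atp5sl, with adjusted p of 0.21, 0.11 and 0.14. With a term for each embryo, 65 members were equivalent, against 45.4% of all genes, these 3 among them (adjusted p 0.0905, 0.0020 and 0.0081). In that fit Ndufa3 was thus both called towards the maternal allele and within the margin. Complex V had 14 of 15 members called, complex I 23 of 32, complex IV 9 of 13, complex III 4 of 7 and complex II 2 of 3. Of the 10 members with a strain difference, 9 were equivalent between parents, Cox5b with an adjusted p of 0.057. Without forward embryo 2 the count was 35 against 14.7% of all genes, without forward embryo 3 it was 32 against 12.9%, and without reverse embryo 1 it was 63 of 77, against 47.4% of all genes.

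**Figure D3:**
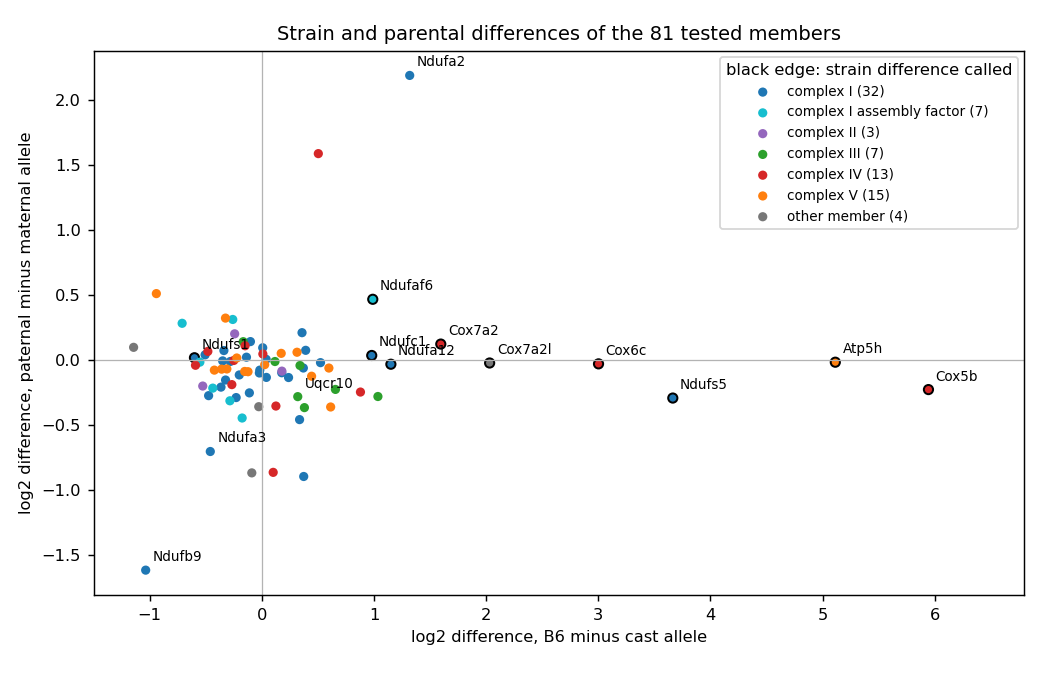
Strain difference (x axis, B6 minus cast, log2) against parental difference (y axis, paternal minus maternal, log2) for the 81 tested members, coloured by complex with the number of members, a black edge marking strain calls. Cox5b, Atp5h, Ndufs5 and Cox6c lie at strain differences between 3.00 and 5.94 with parental differences between -0.29 and -0.02. Ndufa2 and Ndufb9 stand out vertically on 90 and 50 reads, with 70 of the Ndufa2 reads from reverse embryo 1.

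Several subunits have isoforms of other tissues. The form Cox4i1 had 18396 reads and Cox4i2, known from lung, 27. Cox6a1 had 6853 reads and its heart and muscle form Cox6a2 had 1. Cox6b1 had 190 reads and the testis form Cox6b2 166, with B6 shares from 57.1% to 100% over the embryos and a strain difference of 0.88 (adjusted p 0.53). Of the genes of the c subunit, Atp5g3 had 5130 reads and strain and parental differences of -0.12 and -0.09, Atp5g2 386 reads with -0.32 and 0.32, and Atp5g1 380 reads with -0.94 and 0.51. Cox8a had 12047 reads with a B6 share of 49.7% to 53.5% in the 8 embryos. Ndufa4, now counted with complex IV, had 4477 reads, a strain difference of -0.27 and a parental difference of -0.19, neither called. Cox8b, Cox8c and Ndufa4l2 were not analysed here. Since the read number depends on the SNPs of each gene, these numbers show precision and not the order of the levels.

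Complex II, succinate dehydrogenase, also serves the citric acid cycle. Its flavoprotein gene Sdha had 3101 reads, with 57.0%, 63.2% and 60.7% B6 in the forward embryos and 61.4%, 52.3%, 59.8%, 63.3% and 49.8% in the reverse embryos, and neither its strain difference of 0.18 nor its parental difference of -0.08 was called. The iron-sulfur gene Sdhb was 46.0%, 50% and 52.5% B6 in the forward embryos and 20.5%, 43.7%, 45.1%, 44.7% and 41.9% in the reverse embryos. Reverse embryo 1 was low, on 29.2 CPM. The membrane anchor Sdhc had 309 reads and a strain difference of -0.24, and Sdhd with 17 reads was not tested. Cycs, cytochrome c, had 93 reads, a strain difference of -1.14 (adjusted p 0.45) and 11 similar loci. The other members that were not tested were Ndufb4, Ndufb7, Uqcrh, Cox6a2, Cox7b2 and Atp5c1-ps, each with at most 40 reads.

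The sum of both alleles was compared between reverse and forward embryos. This comparison cannot tell the strain of the mother apart from that of the father or from the litter. No member was called by edgeR's quasi-likelihood test, against 0.103% of all genes, with 2 members at an unadjusted p under 0.05. DESeq2 called no member and 1.03% of all genes. Without reverse embryo 1 edgeR called no member and 1.37% of all genes, and without reverse embryo 3 no member and 0.409%. The median reverse minus forward difference was -0.07 over the members and 0.08 over all genes, and without reverse embryo 1 both were 0.02. Ndufa5, the complex I member with most reads, had 5534, 4719 and 3933 CPM in the forward embryos and 2173, 2699, 3614, 3682 and 3233 in the reverse embryos. Every reverse embryo was below every forward embryo, but the difference of -0.58 (SE 0.36) had an adjusted p of 0.73, and of 0.44 without reverse embryo 1.

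Summed over complex I, the embryos had 19309, 17994 and 16609 CPM in the forward cross and 10133, 14292, 17482.5, 15439 and 15571 in the reverse cross. The means were 17971 ± 1349.9 (SD, n = 3) and 14584 ± 2739 (SD, n = 5), or 15696 ± 1322 (SD, n = 4) without reverse embryo 1, and both groups overlapped. Complex V had 7241, 7299.8 and 8285 CPM in the forward embryos and 4159.7, 7031, 9617, 7248 and 7550.5 in the reverse embryos. Apart from reverse embryo 1, the crosses overlapped here too. Complex III ranged from 4548 to 4779 in the forward embryos and from 2255 to 5025 in the reverse embryos, complex IV from 6693 to 7712 and from 4314 to 8115, and complex II from 398.5 to 477 and from 346 to 524. Reverse embryo 1 was the lowest of the 8 embryos in each of the 5 complexes.

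**Figure D4:**
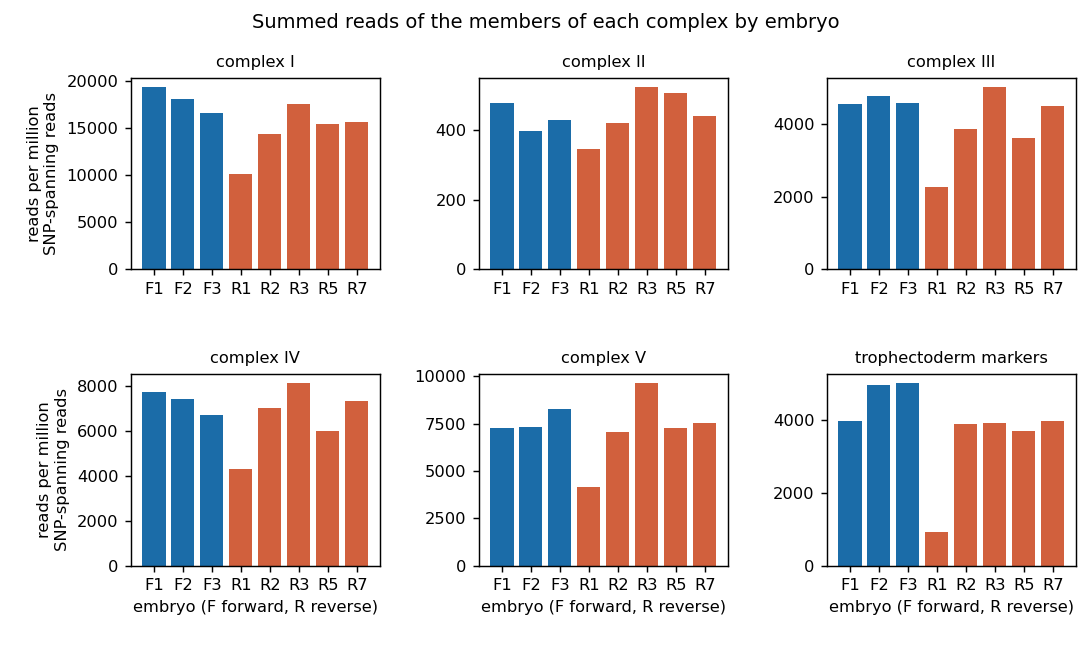
Summed CPM, reads per 1000000 SNP-spanning reads (y axis), of the members of each complex and of 7 trophectoderm markers, 1 bar per embryo (x axis; F forward, R reverse). Reverse embryo 1 (R1) is lowest in every panel, at 10133 for complex I and 930 for the trophectoderm markers.

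Relative to the mean of the other 4 reverse embryos, reverse embryo 1 had 0.646 times the CPM of complex I, 0.732 of complex II, 0.530 of complex III, 0.607 of complex IV and 0.529 of complex V. Members within a complex differed widely. Of 67 members with at least 200 reads, 27 (40.3%) were below 0.5 times and 18 (26.9%) above 1 times, against 22.4% and 53.5% of 7505 genes with as many reads. Cox5a, a matrix-side subunit of complex IV, was at 200.6 CPM in reverse embryo 1 and at 1115, 1581, 1048 and 1099.9 in reverse embryos 2, 3, 5 and 7. In the forward embryos Cox5a was at 965, 996 and 1092. Atp5d, a subunit of the central stalk of the ATP synthase, was at 270.4 in reverse embryo 1 and between 1093 and 1352 in the other embryos, and the complex III core gene Uqcrc1 at 235 against 676.5 to 1314. In contrast, Cox6c was at 1.55 times, Cox7a2 at 1.15 times and Sdha at 1.14 times the mean of the other reverse embryos, and Ndufab1, the acyl carrier protein, was at 2.89 times. These members were chosen after their values were seen, and with 1 embryo there is no test.

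**Figure D5:**
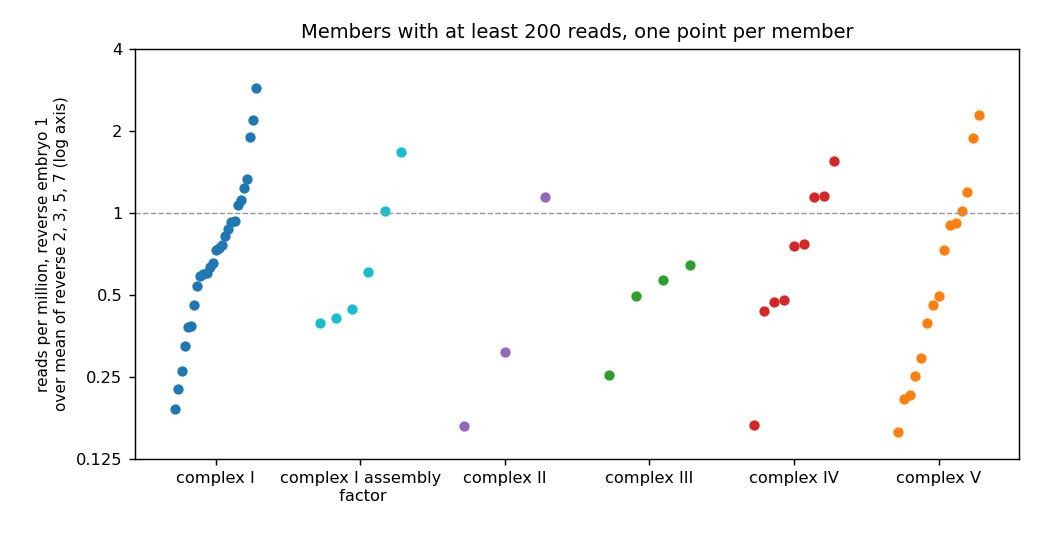
CPM in reverse embryo 1 divided by the mean of reverse embryos 2, 3, 5 and 7 (y axis, log scale), 1 point per member with at least 200 reads, by complex (x axis). Points spread from 0.157 to 2.89, with 27 of 67 members below 0.5 (Atp5s, Atp5sl and Cox7a2l are among the 67 but lie outside the complexes and are not drawn).

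Genes that assemble or control the system were taken from lists outside the symbol rule. Of 42 assembly factors, 35 were tested, and 7 differed between strains, where 15.5% of all genes did. Acad9 (1.30), Cox10 (0.68) and Cox11 (1.14), which serve complex I and the haem and copper centres of complex IV, were higher from B6. Coa4 (-1.09), Coa6 (-1.40), Cox15 (-2.08) and Lyrm7 (-0.94) were higher from cast. Thus 4 of 35 were called towards cast here, against 1 of 81 among the members and 4.45% of all genes, and the difference between these lists was not tested. None of the 35 was called between parents by edgeR, with 0 at an unadjusted p under 0.05 and 0 by DESeq2, and 27 were equivalent, where 35.6% of all genes were. Of 16 regulators of nuclear respiratory genes and mitochondrial DNA, 14 were tested. Ppargc1b, a coactivator of respiratory genes, was higher from cast (-1.46, adjusted p 0.0074 in edgeR's quasi-likelihood test). None of the 14 was called between parents by edgeR, with 0 at an unadjusted p under 0.05 and 0 by DESeq2, and 9 were equivalent. Equivalence calls depend on depth, reaching 84.1% of all genes with at least 1000 reads, and neither list was matched for depth. No gene of either list was called between the crosses by edgeR, with 2 assembly factors and 1 regulator at an unadjusted p under 0.05 and 0 of both lists by DESeq2.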

How the data were processed

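Single E3.5 blastocysts, 3 forward and 5 reverse, were sequenced with SMART-Seq2. According to the methods, the authors aligned reads to mm10 with STAR and left out reads mapping to several locations. The labels give STAR version 2.5.2b, while the methods name another version. The authors kept reads covering SNPs between both strains, and deposited counts of reads per gene, embryo and strain without normalization. They removed further embryos beforehand.

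Genes were placed by symbol with GENCODE M21 or RefSeq (1113 of 22810 symbols were not matched), and the tests leave out X-linked and unplaced genes. Maternal reads are B6 in the forward and cast in the reverse cross. Counts with at least 10 reads in 1 allele library were tested with edgeR 4.0.16 in R 4.3.3 (TMM factors, terms for strain and parent over 16 allele libraries, quasi-likelihood test, Benjamini-Hochberg adjustment, threshold 0.1). Equivalence used the same model against a log2 margin of 1. Embryo totals were compared between crosses in the same way. The study's methods name DESeq2 (1.42.0 here), which served as an alternative, beside other scalings, filters, a term for each embryo and leaving out each embryo. The code was tested on simulated data, drawn independently for each allele library and so without the pairing of both alleles of an embryo. Similar loci were found with blastn 2.17.0.

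Both alleles of an embryo are truly paired. Their deviations from the group means correlated with r between 0.0823 and 0.488 across genes in the 8 embryos. Embryos of the same number in both crosses share only the number.

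The members and lists were chosen with earlier results of these data known. The text names members that were called between strains, between parents (with or without the embryo term) or between crosses, the 2 with most reads in each complex, isoform families, Sdha to Sdhd and Cycs, and the 5 with at least 100 reads and the largest parental difference. Whether the counting used strand is not given in the sources used here. Of the 88 members, 30 overlap a gene on the other strand, and 38 overlap a gene on either strand. Atp5o, Cox4i1 and Ndufb8 are among those that overlap a gene on their own strand.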

Additional observations from a re-analysis of the deposited data

Results flagged for a closer look

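In 52 groups of 5 reverse embryos, the highest or lowest embryo was set against the others by Dixon's ratio of its gap to the whole range, with a 95% critical value of 0.71, which about 5% of groups exceed by chance. The groups were 14 sums over a complex or over all members (B6 share and level), the B6 shares of 34 named members with at least 100 reads, and the levels of 4 members given by embryo, a choice that was widened after seeing the data. It was exceeded 7 times, 6 of them by reverse embryo 1. Its B6 share was 61.3% for the complex I assembly factors, above 50.1% to 52.2% in the other reverse embryos (ratio 0.807). It was 67.5% for complex IV as a sum, above 59.2% to 61.6% (ratio 0.714), but 55.1% against 52.3% to 54.55% as a median over members. It was 83.1% for Ndufs5, below 93.5% to 95.5% (ratio 0.839). It was 20.45% for Sdhb on 44 reads, below 41.9% to 45.1% (ratio 0.871), and 11.11% for Atp5g1 on 9 reads, below 42.1% to 53.7% (ratio 0.729). The level of Atp5d was 270.4 CPM in reverse embryo 1 and 1117 to 1352 in the others (ratio 0.782), and this member had been chosen for that difference. The remaining group was Cox6b2, at 88.89% B6 in reverse embryo 3 on 9 reads and at 57.1% to 65.7% in the others (ratio 0.731). Reverse embryo 1 had 930 CPM (reads per 1000000 SNP-spanning reads) of trophectoderm markers, against 3680 to 3959 in the other reverse embryos, and the part of this difference in the shares was not tested.

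The B6 minus cast difference of Ndufa3 was not the same in both crosses. With a term for each embryo, its paternal minus maternal log2 difference was -0.75 (adjusted p 0.0012 in edgeR's quasi-likelihood test), with the maternal share above 50% in 8 of 8 embryos. The overlap of Ndufa3 with Tfpt on the other strand was not resolved. For Uqcr10 the same term was -0.33 (adjusted p 0.055), with the maternal share above 50% in 4 of 8 embryos.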

How the results depend on the processing

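Between strains, Cox5b, Atp5h, Ndufs5, Cox6c, Cox7a2l, Cox7a2, Ndufa12 and Ndufc1 stayed past the threshold in the same direction under all 15 alternatives. Ndufs1 was lost under 9 of them, with adjusted p of 0.11 to 0.51, and Ndufaf6 under 6, with 0.12 to 0.36. The number of members called between strains was 10. It was 34 with the replicate block (a term for each embryo), 18 with 1 library size per embryo, and 8 to 16 when 1 embryo was left out, the 16 without reverse embryo 1. Between parents it was 0, but 2 with the replicate block, 1 with DESeq2, and 0 to 0 without any 1 embryo. Equivalent members numbered 57, with the replicate block 65, and 32 to 63 when 1 embryo was left out. Against a margin of 1.5-fold, 0 members and 0 of all genes were equivalent, with 28 members at an unadjusted p under 0.05. No member was called between crosses under any alternative. The replicate block changed no parental call other than those of Ndufa3 and Uqcr10, and in the cross comparison, where it paired embryos that share only a number, it left 0 member calls.

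The B6 share of summed reads without the member with most reads was 58.2% (forward) and 57.0% (reverse) for complex I. In the same order it was 54.9% and 50.4% for the assembly factors and 49.8% and 43.8% for complex II. For complex III it was 59.3% and 59.9%, for complex IV 68.7% and 66.8%, and for complex V 57.5% and 57.2%. As a median over members it was 56.5% and 53.5% for complex I, 53.9% and 49.8% for the assembly factors, and 52.9% and 48.7% for complex II. For complex III this median was 62.2% and 59.4%, for complex IV 56.3% and 54.0%, and for complex V 55.8% and 55.7%. The cause was not tested. Leaving out each embryo in turn was an alternative added after seeing the data. It moved no mean of the summed shares by as much as the SD between embryos. Dropping an embryo cannot move a mean that far, so this check could not fail and says nothing about stability. Members with few reads, such as Cycs with 93, are limited by depth.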
